A study of Mus musculus with 6 samples.

Results

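The 9 genes Foxl2, Wt1, Nr5a1, Nr5a2, Gata4, Gata6, Nr0b1, Nr2f2 and Tcf21 encode transcription factors of granulosa cells and of the gonad, and they were taken by gene symbol from the 19423 genes of the table; the rule uses no measured value, but the set was drawn up with earlier results of these data known. The ovaries came from mice of the athymic strain balb/c-nude, which accepts grafts of human cells. The study compared 3 control ovaries with 3 ovaries of mice that had received MBA-MD-231 cells, the labels' name for a cultured cancer line, under the skin. All samples carry the label day 80 and belong to replicates 1 to 3 of their group; no other allele or agent is named. The treatment labels of tumor replicates 2 and 3 end in 232 and 233, while the cell line label is the same for all 3. The labels give no mock injection for the controls, no animal age and no stage of the estrous cycle. By the cell line label the tumors came from 1 injected line, which the treatment labels leave unsettled.

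These factors act at several levels of ovarian identity. WT1, the GATA factors and the NR5A receptor NR5A1 build the early gonad, and in the adult ovary FOXL2 keeps granulosa cells from taking a testicular fate. NR5A1, also called SF-1, and its relative NR5A2, also called LRH-1, bind DNA as monomers and drive genes of steroid synthesis and of the inhibins, while NR0B1, also called DAX1, lacks a usual DNA-binding domain and represses them by binding the receptors. NR2F2 and TCF21 are known from stroma: the first is an orphan nuclear receptor of theca, stroma and vessels, and the second is a basic helix-loop-helix factor of mesenchymal cells that can repress Nr5a1.

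None of the 9 genes passed edgeR's quasi-likelihood test of tumor against control, where 7.71% of the 15787 genes tested passed at a Benjamini-Hochberg adjusted p under 0.05 (3.8% higher and 3.91% lower in tumor). None had an unadjusted p under 0.05 either, against 31% of all genes tested, and none passed with DESeq2, where 19% of genes did. None passed with limma on log2 FPKM, but the share of all genes that passed there is not given, so no comparison can be made. In the authors' deposited table the q-values of the 9 genes lay between 0.358 and 0.940, where 14.7% of genes had a q under 0.05. The sizes of the differences were those of an ordinary gene: the median absolute log2 fold change was 0.30 over the 9 genes and 0.29 over all genes tested. Of the 9, 4 had a positive and 5 a negative log2 fold change of tumor over control, with a median of -0.10 beside -0.02 over all genes. A missed threshold does not show that the levels were equal, and the 95% intervals of the fold change lay within a 2-fold change in either direction for 6 of the 9; those of Nr5a1, Gata4 and Tcf21 reached beyond it.

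The libraries held between 18278614 and 19238900 estimated counts, and all 9 genes passed the filter on low counts. A count of 3, the limit that a count of 0 allows, is at most 0.164 CPM (estimated counts scaled to library size), well under the lowest level of a gene here, 4.70 CPM for Nr0b1. Such limits cover counting error only. None of the 10 oocyte and none of the 10 granulosa markers was at 0 in any library, as the ovary label implies. None of the 10 oviduct markers was at 0 either, so this check cannot tell ovary alone from ovary with other tissue. The first principal component of log2 CPM held 52.1% of the variance and the second 28.8%. Scores on the first, in replicate order, were -42.8, -42.1 and -5.23 in control and -34.6, 49.6 and 75.1 in tumor. There tumor replicate 1 fell among the controls. The 10 oviduct markers summed to 2277, 2306 and 557 CPM in control and 2188, 214 and 109 CPM in tumor. Their part in that component was not tested. On the second component tumor replicate 1 stood apart, at -66.5 against -6.25 to 39.8 elsewhere. In that library the 10 adipocyte markers summed to 7750 CPM, against 699 and 3198 CPM in tumor replicates 2 and 3 and 501 to 709 CPM in controls. Nothing in the labels says that the samples are separate animals, so the p-values measure the spread between these samples, which may be technical. In whole ovaries, fewer cells of a type and less RNA per cell cannot be told apart.

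**Figure D1:**
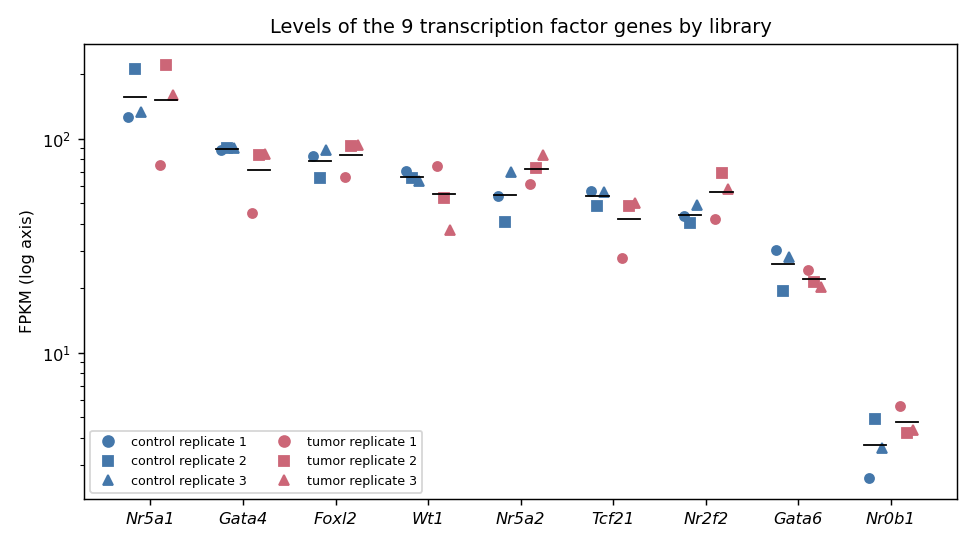
Level of each gene in each library as FPKM on a log axis; blue points are the 3 control and red points the 3 tumor libraries, symbols mark the replicate number, and black bars are group means. Nr5a1 has the highest mean in both groups and Nr0b1 the lowest, and tumor replicate 1 lies below all other libraries for Nr5a1, Gata4 and Tcf21.

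By length-scaled level (FPKM, fragments scaled to transcript length and library size), Nr5a1 had the highest mean in both groups, at 156.8 ± 47.6 FPKM in control and 152.0 ± 73.3 FPKM in tumor (SD, n = 3 each). In control ovaries Gata4, Foxl2, Wt1, Nr5a2, Tcf21 and Nr2f2 followed with means between 89.7 and 44.2 FPKM. Each of these 6 overlapped its neighbour in that order, but not every gene further down. All control libraries of Gata4 lay above all those of Wt1, Nr5a2, Tcf21 and Nr2f2, and those of Foxl2 and Wt1 lay above those of Tcf21 and Nr2f2. Gata6, at 25.8 ± 5.70 FPKM, and Nr0b1, at 3.69 ± 1.16 FPKM, lay below all libraries of the gene above them. In tumor ovaries the gaps above Gata6 (22.04 ± 2.03 FPKM) and above Nr0b1 (4.73 ± 0.780 FPKM) were again free of overlap, whereas Nr5a1 then overlapped Foxl2, the second in order. The plot of levels by library shows this ladder, with Nr0b1 far below the other 8 genes.

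Among the NR5A receptors, Nr5a1 was measured at 380.3, 617 and 394 CPM in control replicates 1, 2 and 3 and at 208, 629 and 465 CPM in tumor replicates 1, 2 and 3. The groups overlapped fully: tumor held both the lowest and the highest library. Its log2 fold change was -0.10 ± 0.42 (SE) with an adjusted p of 0.905 by edgeR, the widest error of the 9 genes, and it was 0.24 without tumor replicate 1. Nr5a1 was highest in the same 3 libraries that were highest for Cyp17a1, the theca enzyme of androgen synthesis, a gene picked for this comparison after its values were seen. Cyp17a1 stood at 14.3, 2669 and 22.1 CPM in the control libraries and at 37.5, 1533 and 2273 CPM in the tumor libraries. The 8 theca and interstitial markers, Cyp17a1 among them, summed to 2480, 5528 and 2446 CPM in control and 1062, 3355 and 4243 CPM in tumor replicates 1, 2 and 3, and none was at 0. Those sums are mostly Aldh1a1 and Cyp17a1; by mean log2 CPM over the list, tumor replicate 1 (6.22) lay above control replicates 1 and 3 (5.996 and 6.07). Of the 8, Ptch1, Hhip and Enpep rose in tumor by edgeR and 5 did not pass, with a median log2 fold change of 0.65. Their part in the level of Nr5a1 was not tested.

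Nr5a2, the NR5A receptor typical of granulosa and luteal cells, was measured at 256, 187 and 326 CPM in control and 266, 325 and 386 CPM in tumor. Tumor libraries tended to the upper end, but control replicate 3 lay above 2 of them. The log2 fold change was 0.34 ± 0.23 (SE) with an edgeR adjusted p of 0.359. Without control replicate 3 it was 0.59 with an adjusted p of 0.201, and it was positive under all 17 alternatives tried. The FPKM ratio of Nr5a1 over Nr5a2 was 2.34, 5.21 and 1.91 in control and 1.23, 3.05 and 1.90 in tumor replicates 1, 2 and 3, so Nr5a1 stood above Nr5a2 in every library, by least in tumor replicate 1.

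Nr0b1, the X-linked repressor of both receptors, was measured at only 4.70, 8.61 and 6.41 CPM in control and 9.35, 7.20 and 7.69 CPM in tumor, on 87 to 180 estimated reads a library. Control replicate 2 lay between the tumor libraries, and the log2 fold change of 0.30 ± 0.27 (SE) had an edgeR adjusted p of 0.497. Without control replicate 1 it was 0.13 and without control replicate 2 it was 0.59, with adjusted p of 0.843 and 0.184. Tumor replicate 1 held the lowest Nr5a1 and the highest Nr0b1 of all 6 libraries, with an FPKM ratio of 13.4 against 36.5 to 52.6 elsewhere.

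The bases upstream of Nr0b1 and Nr5a2 are shown for the letters that nuclear receptors and GATA factors are known to bind, and because 2 starts are listed for Nr5a2, of which the second is that of a transcript with few reads here. Capitals mark matches, on either strand, to the nuclear receptor half-site AGGTCA or to the GATA elements TGATAA and AGATAA; the searched letters also included the NR5A element AAGGTCA, which contains the half-site, the forkhead element TGTTTAC and the E-box CAGCTG. Sequences are from RefSeq, build GRCm38.p6, and each shows 200 of the 250 bases searched, leaving out the 50 next to the start.
Nr0b1, chrX:86191525-86191724, plus strand: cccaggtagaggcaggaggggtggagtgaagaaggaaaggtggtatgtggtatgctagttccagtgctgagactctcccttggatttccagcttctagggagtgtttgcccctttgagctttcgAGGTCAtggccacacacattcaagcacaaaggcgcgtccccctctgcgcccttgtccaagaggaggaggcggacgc
Nr5a2, first start, chr1:136960499-136960698, minus strand: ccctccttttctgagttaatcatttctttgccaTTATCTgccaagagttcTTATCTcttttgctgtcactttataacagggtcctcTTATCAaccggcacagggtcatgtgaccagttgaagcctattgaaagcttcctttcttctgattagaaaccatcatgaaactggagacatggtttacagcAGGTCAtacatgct
Nr5a2, second start, chr1:136953681-136953880, minus strand: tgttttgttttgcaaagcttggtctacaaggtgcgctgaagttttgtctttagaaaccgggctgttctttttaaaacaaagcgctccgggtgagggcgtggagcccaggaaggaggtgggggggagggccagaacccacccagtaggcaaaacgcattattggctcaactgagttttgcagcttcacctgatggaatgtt

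The half-site AGGTCA begins 126 bases before the start of Nr0b1 and 64 bases before the first start of Nr5a2, and 14% of all 32851 promoter windows of that length hold it. The first Nr5a2 window also holds 1 match to TGATAA and 2 to AGATAA, at shares of 7.94% and 9.99% of all windows. The second Nr5a2 window holds none of the 6 motifs, and AAGGTCA (4.08% of all windows), TGTTTAC (3.17%) and CAGCTG (13% of all windows) were in none of the 6 windows of these genes. The windows of Foxl2 and Nr2f2 had no match. All 200 bases of the Foxl2 window that end 50 before its listed start are exon in GENCODE, and the Nr2f2 window lies by the start of NM_183261.3, not by that of its leading transcript NM_009697.3. The window of Tcf21 had 1 match to AGATAA, 31 bases before the start. The table held windows for 5 of the 9 genes, not for Wt1, Nr5a1, Gata4 and Gata6. These matches describe letters in a window and were not tested as sites.

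The deposited transcript table split Nr5a2 over 3 RefSeq models. The model NM_001159769.2, whose matched GENCODE transcript begins at the second start, took 0 to 26.8 estimated reads, at most 0.564% of the gene in any library. The predicted models XM_006529622.4 and XM_006529621.3 took 45.3% to 74.8% and 24.8% to 54.1% of the gene. The first of them led with 74.8% in control replicate 3 and 73.3% in tumor replicate 3, and lay between 45.3% and 59.2% in the other 4 libraries, so the split did not follow the groups. These shares are estimates from single reads of 50 bases, and the annotation names a further model, NM_030676.3, that was not analysed here. Nr5a1 was nearly all NM_139051.3, with 93.2% to 99.8% of its reads.

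**Figure D2:**
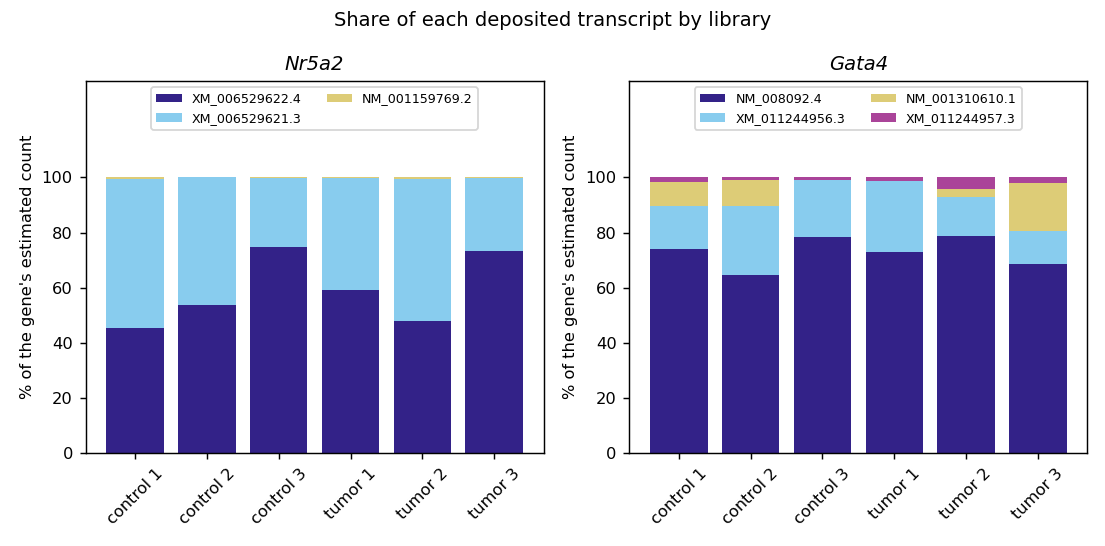
Share of each RefSeq transcript model in the estimated count of Nr5a2 (left) and Gata4 (right), as stacked bars that sum to 100% for each library. The 2 predicted models of Nr5a2 trade places between libraries of the same group, and NM_001310610.1 of Gata4 runs from 0% to 17.6%.

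Gata4 and Gata6 encode zinc finger factors that act together in granulosa and luteal cells. Gata4 was measured at 308, 305 and 311 CPM in control and 143, 275 and 288 CPM in tumor replicates 1, 2 and 3. The control libraries differed by a coefficient of variation of 1.01%, the smallest of the 9 genes, against 34.1% in tumor. The tumor value rests mostly on tumor replicate 1. A coefficient from 3 libraries is imprecise, and the difference in spread was not tested. It was the only one of the 9 whose groups did not overlap, where the groups did not overlap in 38.1% of all genes tested, and 18.4% did so with tumor below control. The log2 fold change was -0.39 ± 0.26 (SE) with an edgeR adjusted p of 0.357, and it was -0.13 ± 0.08 with an adjusted p of 0.278 without tumor replicate 1. In that library Gata4 was lower by a factor of 1.92 than in the lowest other library.

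Gata6 was measured at 98.2, 61.2 and 90.4 CPM in control and 72.4, 66.0 and 64.4 CPM in tumor. Control replicate 2 was the lowest library of all and the other 2 controls were the highest. Tumor over control gave -0.30 ± 0.18 (SE) on the log2 scale, with an edgeR adjusted p of 0.302. With control replicate 2 left out it fell by 0.43 ± 0.10 on the log2 scale with an adjusted p of 0.0473, the only 1 of the 9 genes to pass in that fit, where 14.2% of genes passed. Gata4 exceeded Gata6 in every library, with FPKM ratios of 2.93, 4.67 and 3.22 in control and 1.85, 3.90 and 4.18 in tumor. Of the 4 Gata4 transcript models, NM_008092.4 led in every library with 64.6% to 78.7%.

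Foxl2, the granulosa fate keeper, was measured at 213, 163 and 224 CPM in control and 156, 224 and 232 CPM in tumor. The lowest 2 libraries were 1 of each group. Its log2 fold change of 0.03 ± 0.19 (SE) had an edgeR adjusted p of 0.937, with a 95% interval from 0.741-fold to 1.41-fold. The sign was not stable: it was -0.06 when control replicate 2 was left out and 0.19 when tumor replicate 1 was. The summed level of the 10 granulosa markers was lowest in the same 2 libraries, at 4687, 3476 and 4532 CPM in control and 2978, 4846 and 4829 CPM in tumor. Inha makes up most of that sum, and single markers went other ways: Inhbb, Fst and Esr2 were higher in tumor replicate 1 than in every control. The median FPKM of the list was 69.2, 40.3 and 70.9 in control and 77.9, 89.4 and 81.8 in tumor, and the part of these markers in the level of Foxl2 was not tested.

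Wt1 encodes a zinc finger factor of the early gonad that persists in granulosa cells of small follicles and in the surface epithelium. It was measured at 223, 199 and 198 CPM in control and 215, 157 and 115 CPM in tumor. Tumor replicate 1 lay among the controls, while tumor replicates 2 and 3 lay below all of them. The log2 fold change was -0.35 ± 0.22 (SE) with an edgeR adjusted p of 0.335. Without tumor replicate 1 it fell by 0.60 ± 0.15 on the log2 scale with an adjusted p of 0.0466, where 16.3% of genes passed. The 10 markers of surface epithelium and mesothelium, keratins and uroplakins among them, summed to 618, 584 and 327 CPM in control and 641, 218 and 158 CPM in tumor. None of these markers was at 0 and none passed the test. Their sum was lowest in the 2 tumor libraries where Wt1 was lowest. Single markers differed: Krt18 was at 126, 114 and 46.8 CPM in control and 133, 22.1 and 14.7 CPM in tumor. Muc16 was at 18.6, 17.2 and 18.0 CPM in control and 29.4, 17.2 and 17.1 CPM in tumor. The sum of the 10 oviduct markers, at 2188, 214 and 109 CPM in tumor, was also lowest in those 2 libraries. The part of either list in the level of Wt1 was not tested.

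Of the stromal factors, Tcf21 was measured at 71.6, 58.9 and 69.4 CPM in control and 31.7, 57.2 and 60.8 CPM in tumor. Tumor replicate 3 lay above control replicate 2, and tumor replicate 1 lay below every other library by a factor of 1.80. The log2 fold change of -0.42 ± 0.25 (SE), the largest in size of the 9, had an edgeR adjusted p of 0.305; it was -0.17 ± 0.11 without tumor replicate 1. The 10 markers of fibroblasts and pericytes summed to 5401 to 6089 CPM in control and 3408 to 4511 CPM in tumor, lowest in tumor replicate 1, and none was at 0. Of those markers 2 fell and 8 did not pass; their part in the level of Tcf21 was not tested.

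Nr2f2 was measured at 188, 168 and 209 CPM in control and 166, 281 and 243 CPM in tumor. Here tumor replicate 1 was the lowest of all 6 libraries by CPM, while tumor replicates 2 and 3 were above all controls. By FPKM control replicate 2 was the lowest, at 40.16 against 42.15 in tumor replicate 1. The log2 fold change was 0.29 ± 0.20 (SE) with an edgeR adjusted p of 0.372. Without tumor replicate 1 it rose by 0.48 ± 0.12 on the log2 scale with an adjusted p of 0.0495, so that Wt1 and Nr2f2 were the 2 genes of the 9 to pass in that fit, where 16.3% of all genes did. Its leading transcript NM_009697.3 kept 78.2% to 83.5% of the reads in every library.

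**Figure D3:**
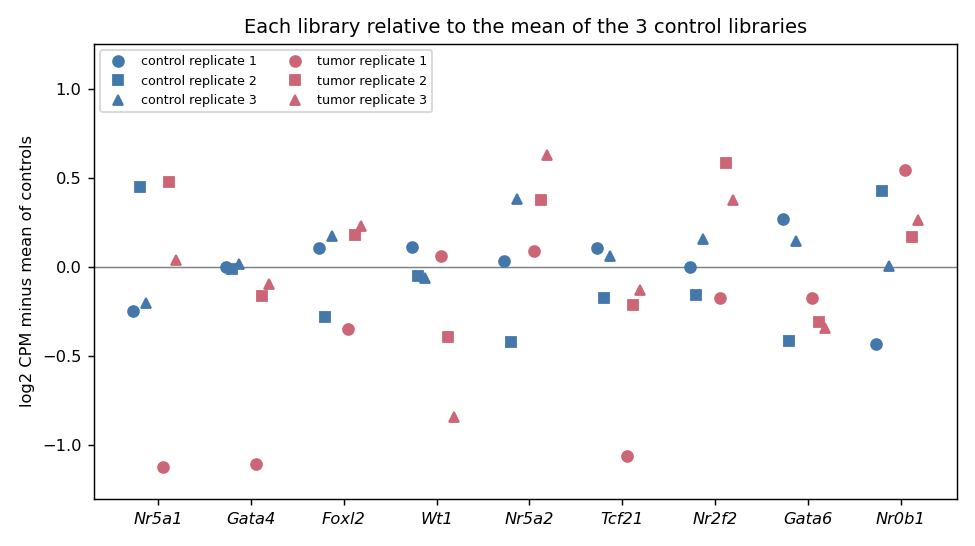
Difference of each library's log2 CPM from the mean of the 3 control libraries, for each gene; colours and symbols as in the plot of levels. Tumor replicate 1 lies at -1.12, -1.11 and -1.06 for Nr5a1, Gata4 and Tcf21 and above all libraries for Nr0b1, while Wt1 is low in tumor replicates 2 and 3.

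The spread among the tumor libraries was thus not shared by all 9 genes. Tumor replicate 1 was lower by at least 1.5-fold than every other library for Nr5a1, Gata4 and Tcf21, and 2.39% of all genes tested were that low there. No gene of the 9 stood apart in this way in another library. In tumor replicate 1, by CPM, Foxl2 and Nr2f2 were the lowest of the 6 by less than that. Nr0b1 was the highest there, and Wt1 was the second highest. Some of these ranks depend on the scaling. By FPKM control replicate 2 was lowest for Foxl2 (65.68 against 66.38 in tumor replicate 1) and for Nr2f2 (40.16 against 42.15). By FPKM tumor replicate 1 was also the highest for Wt1 (74.56). This pattern was described after its values were seen and was not tested. The summed luteal markers were also lowest in tumor replicate 1, at 631 CPM over 8 genes. They were at 3249 and 3793 CPM in the other tumor libraries and 9129 to 9779 CPM in controls. Most of that sum is Cyp11a1, and Akr1c18, Ptgfr and Parm1 were higher in tumor replicate 1 than in the other 2 tumor libraries. Their part, and that of the adipocyte markers, in these 3 levels was not tested.

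**Figure D4:**
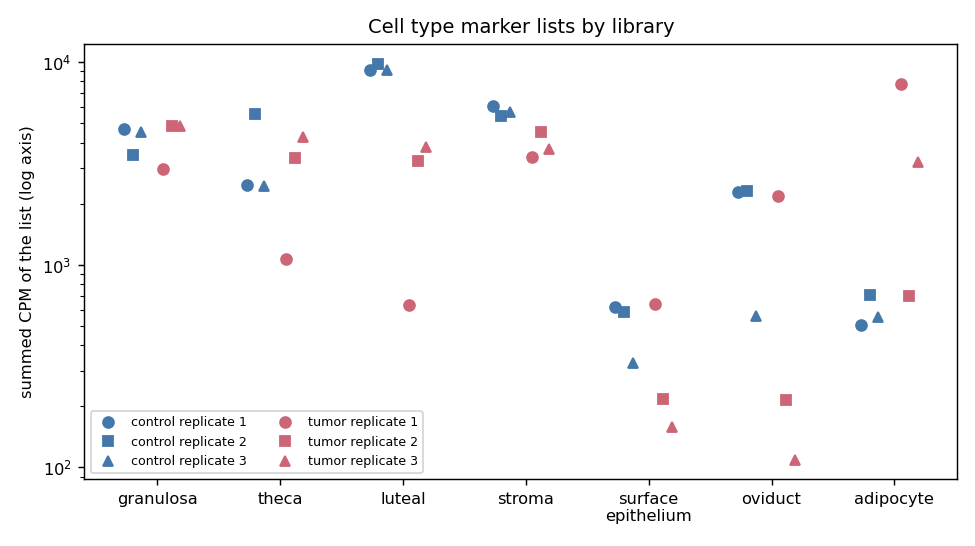
Summed CPM of fixed marker lists in each library on a log axis; blue is control, red is tumor, symbols mark the replicate. The sum is lowest in tumor replicate 1 for theca, luteal, stromal and granulosa markers and highest there for adipocyte markers, and tumor replicates 2 and 3 have the lowest sums for surface epithelium and oviduct markers.

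**Figure D5:**
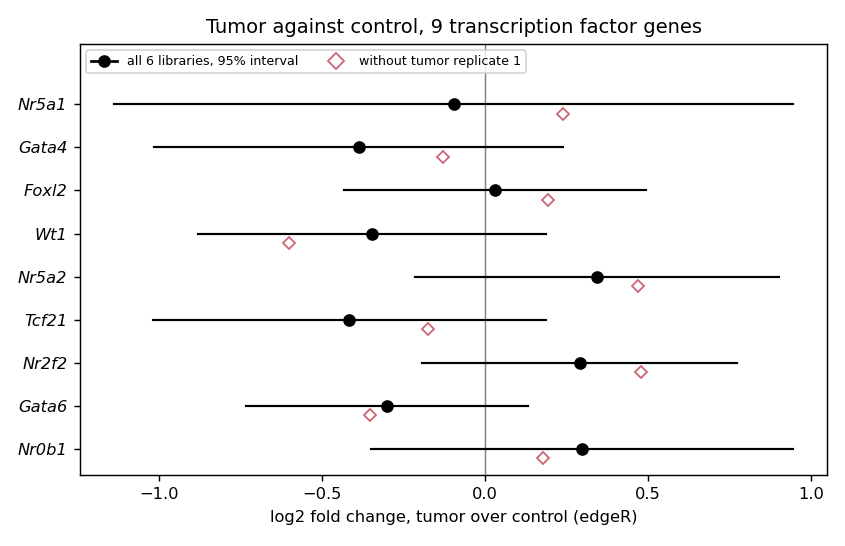
Log2 fold change of tumor over control for each gene by edgeR, with its 95% interval over all 6 libraries (black), and the same value without tumor replicate 1 (open diamonds). All 9 intervals include 0. Leaving out tumor replicate 1 moves Wt1, Nr2f2, Foxl2, Nr5a2 and Gata6 away from 0. It moves Gata4, Tcf21 and Nr0b1 toward 0 and turns the sign of Nr5a1.

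The patterns over the 6 libraries gave the closest likeness between Gata4 and Tcf21. Likeness was taken as the root mean square difference between log2 CPM profiles, each centred on its own mean. That of the 2 genes was 0.09, against 0.40 and 0.39 for the spread of each around its mean. Most of that spread was tumor replicate 1, where Gata4 and Tcf21 lay at -1.11 and -1.06 from their control means. In the other libraries they lay from -0.16 to 0.02 and from -0.21 to 0.11. Their likeness without tumor replicate 1 was not measured. Gata4 was also the member most like Nr5a1, at 0.33, and Foxl2 and Nr2f2 were nearest to each other, at 0.16. Nr0b1 was far from all, with Nr2f2 nearest at 0.46. Among all genes of sufficient level, Epop was one of the 2 nearest to both Gata4 (0.06) and Tcf21 (0.04), beside Gnao1 for Gata4 and Enpp6 for Tcf21. Kctd7 and Depdc1a lay nearest to Foxl2, Bicdl1 and Tctn2 to Wt1, Nrk and Ces2e to Nr5a1, and Dtl and Synpo to Nr5a2. Afmid and Fcgrt lay nearest to Gata6, Lonrf2 and Pgf to Nr0b1, and Ninl and Zdhhc14 to Nr2f2. With 6 libraries and 13806 candidate genes, close profiles are a description only.

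Genes that act beside these factors were taken from 3 lists, whose counts of calls by edgeR stand beside 7.71% of all genes tested (31% by unadjusted p). Of 22 other regulators of gonad development, 18 were tested; Map3k4, a kinase upstream of sex determination, rose, Wnt4, the ligand of ovarian fate, fell, and 16 did not pass. Wnt4 was measured at 201, 122 and 229 CPM in control and 67.1, 87.0 and 82.0 CPM in tumor, which gave -1.22 ± 0.25 (SE) on the log2 scale, with an edgeR adjusted p of 0.0424. All tumor libraries lay below all controls. Irx3, an Iroquois factor of the fetal ovary, and Hoxa10 came next by p, with log2 fold changes of -0.52 and -1.38 and adjusted p of 0.0501 and 0.0508; both passed with DESeq2, at 0.00966 and 0.0392. Over this list the log2 fold changes had a median of -0.10.

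Of 15 cofactors of GATA, WT1 and NR5A factors, the receptor coactivator genes Ncoa3 and Ncoa2 rose, Ncoa7 fell and 12 did not pass, with a median log2 fold change of 0.24. Ncoa3 rose from 62.6 to 88.2 CPM in the mean and Ncoa2 from 63.4 to 88.4 CPM, log2 fold changes of 0.49 ± 0.09 and 0.48 ± 0.09 (SE) with edgeR adjusted p of 0.0385 and 0.0397. Ncoa1 had 0.33 with an adjusted p of 0.0536, and 0.0111 with DESeq2. Zfpm2, the FOG2 partner of GATA4, was measured at 28.5, 23.5 and 33.4 CPM in control and 29.9, 30.2 and 31.6 CPM in tumor. Its groups overlapped. Its relative Zfpm1 was at 36.3, 34.6 and 35.1 CPM in control and 21.6, 27.8 and 27.8 CPM in tumor. The groups of Zfpm1 did not overlap, as in 38.1% of all genes tested, and it did not pass edgeR's test. Both were picked after their values were seen.

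Of 18 genes known as targets of NR5A, GATA4 or FOXL2 factors, 1 passed as higher, 0 as lower and 17 in neither direction by edgeR. Their median log2 fold change was -0.17. An unadjusted p under 0.05 was held by 6 of the 18, a share near the 31% of all genes. The like counts were 8 of the 18 other regulators tested and 9 of the 15 cofactors. Esr2, the estrogen receptor of granulosa cells, was the one that rose, at 56.5, 68.8 and 58.8 CPM in control and 120.2, 145 and 134 CPM in tumor, with an edgeR adjusted p of 0.0248. The follistatin gene Fst and the inhibin subunit gene Inhbb had log2 fold changes of 0.63 and 1.16, and Cyp11a1, the first enzyme of steroid synthesis, had -1.93, with adjusted p of 0.0823, 0.111 and 0.112. All 3 passed with DESeq2, at adjusted p of 0.0115, 0.00529 and 0.00704, and Fst and Cyp11a1 passed with edgeR when tumor replicate 1 was left out, at 0.0395 and 0.0149. Inha, a classic NR5A target, stood at 3198, 2596 and 2999 CPM in control and 1660, 3039 and 3078 CPM in tumor. It was lowest where Nr5a1 was lowest, but the controls ran the other way. Control replicate 1 was highest for Inha and lowest of the controls for Nr5a1 (380 CPM). Control replicate 2 was lowest of the controls for Inha and highest for Nr5a1 (617 CPM). Inha was picked after its values were seen. The calls of Esr2, Wnt4, Map3k4, Ncoa2, Ncoa3 and Ncoa7 each ended when any 1 of control replicate 1, control replicate 3, tumor replicate 2 or tumor replicate 3 was left out. A correction for gene length ended all of them but that of Esr2, and gave log2 fold changes of 0.26 for Map3k4, 0.24 for Ncoa2 and 0.27 for Ncoa3 with edgeR adjusted p of 0.248, 0.220 and 0.198. The calls also ended with the replicate block and with the adipocyte covariate. The sign of the 6 log2 fold changes was kept under all 17 alternatives.

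All 9 genes were placed on GRCm38 by the deposited annotation. Nr5a1 spans chr2:38692656-38714542 on the minus strand in GENCODE, but the deposited entry runs to 38720639 on the plus strand, the strand of its antisense neighbour Nr5a1os. The deposited span of Tcf21, chr10:22815749-22823330 on the plus strand, is that of the antisense gene Gm10824, whereas GENCODE puts Tcf21 at 22817281 to 22820174 on the minus strand. Over all 18675 genes matched by Ensembl identifier, the deposited strand differed from GENCODE for 13.6%. The read counts of Nr5a1 and Tcf21 were assigned to their RefSeq messenger RNA models, and neither shares an exon base with its antisense neighbour in GENCODE. Exon bases shared with a gene on the other strand came to 7.46% for Nr2f2, with B130024G19Rik, 1.43% for Gata6, with 1010001N08Rik, and 0.369% for Foxl2, with Foxl2os; whether the libraries kept strand is not given in the sources used here, so reads in those bases cannot be told apart. Foxl2 lies at chr9:98955607-98958126, Wt1 at chr2:105126529-105173614, Nr2f2 at chr7:70351946-70366746 and Gata4 at chr14:63198914-63271712 in the deposited annotation.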

How the data were processed

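RNA from ovary was sequenced in 6 libraries (MGIseq500, read length 50 bases, single end), per the labels' protocols. HISAT2 2.0.4, Bowtie2 2.2.5, RSEM 1.2.12 and build GRCm38.p6 are named, with no role or order, per the submitters' processing notes. The authors deposited estimated counts and FPKM per gene and estimated counts per transcript, per the file headers. Of the gene counts above 0, 39.2% were not whole. A DESeq2 comparison by the authors gives a q-value, a p-value and a log2 fold change for each gene (deposited table). A further 36 columns of per-sample values were not used.

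Counts were rounded, filtered with filterByExpr and scaled by TMM (factors 0.962 to 1.05). Tumor and control were compared with edgeR 4.0.16 (R 4.3.3), quasi-likelihood F test, group as the only term, adjusted over all 15787 genes. The standard error is the absolute log2 fold change over the square root of F, and intervals use the fit's degrees of freedom. Alternatives used DESeq2 1.42.0 and limma 3.58.1. The fits were tested on simulated data. No 2 libraries agreed within sampling noise (chi-square per degree of freedom at least 12.6).

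The 9 genes and all lists were chosen with earlier results of these data known. Named beside them were up to 4 genes of smallest p per list and the 2 genes of nearest pattern per member, the latter with an average log2 CPM of at least 1 (prior count 2) and no predicted symbols. Genes named outside this rule are marked in the text, except single cell type markers. Those, such as Krt18 and Muc16, were taken from the marker lists with their values known and are not marked one by one.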

Additional observations from a re-analysis of the deposited data

How the results depend on the processing

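None of the 9 genes passed in 13 of the 17 alternatives. Several of these 13 called few genes or none, as counted below, so the 9 could hardly pass there. The 13 are therefore no measure of how stable the result is. With DESeq2's size factors in edgeR 1118 of 15787 genes passed, and without the filter on low counts 957 of 19358. The share for the limma fits is not given here. Leaving out 1 library gave between 0 and 2 of the 9, and between 0 and 2605 of all genes: 0 without control replicate 1, 2274 without control replicate 2, 5 without control replicate 3, 2605 without tumor replicate 1, 3 without tumor replicate 2 and 0 without tumor replicate 3. At an unadjusted p under 0.05 these edgeR fits gave 3137 to 6083 genes. The exceptions were the fits without control replicate 2 and without tumor replicate 1, described above, and 2 fits with a marker mean as a covariate. With the oviduct markers Gata4 (-0.77) and Tcf21 (-0.78) passed, 2 of the 9, with 2713 genes in all (17.2%); with the granulosa markers Tcf21 (-0.62) passed, 1 of the 9, with 2730 in all (17.3%). DESeq2 called 2997 genes, against 1217 in the reported fit. The gene-length correction left 131 and the adipocyte covariate 0 (3321 and 2455 by unadjusted p). With the replicate block edgeR called 0 genes, with 4233 at an unadjusted p under 0.05 and none of the 9 there. Correlations of same-numbered samples' deviations from their group means were 0.24, -0.21 and 0.53. Those of differently numbered samples ran from -0.56 to 0.35. These few correlations cannot settle whether the numbers pair the samples.

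The sign turned in 12 of the 153 comparisons of a gene with an alternative. Foxl2 had -0.20 with the oviduct and -0.12 with the granulosa covariate and lay between -0.074 and 0.19 with 1 library left out. Nr5a1 lay between -0.46 and 0.24 with 1 library left out, and had 0.0053 after the length correction and 0.54 with the adipocyte covariate. That covariate gave 0.035 for Gata4, -0.012 for Nr0b1 and 0.0046 for Tcf21. The cause was not tested. Likeness of patterns, recomputed with DESeq2's size factors as a choice made after seeing the data, moved by at most 0.000248. With 3 libraries a group, an exact permutation test cannot go below 0.1. Depth limits Nr0b1 most, on 87 to 180 reads a library.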

Other observations

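Nr2f1, the closest relative of Nr2f2, did not share its pattern. Nr2f1 was measured at 22.1, 23.2 and 16.8 CPM in control and 25.8, 7.14 and 4.80 CPM in tumor replicates 1, 2 and 3, lowest in the 2 tumor libraries where Nr2f2 was highest. Rspo1, a secreted activator of Wnt signaling in the early ovary, lay in the same order in tumor, at 43.7, 16.3 and 12.5 CPM, and at 25.8, 27.7 and 20.7 CPM in control. Neither passed edgeR's test, with adjusted p of 0.489 and 0.971, and both were picked after their values were seen.

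Runx1, a factor that supports granulosa identity together with FOXL2, was measured at 68.2, 29.1 and 82.5 CPM in control and 32.0, 20.5 and 18.5 CPM in tumor ovaries. Control replicate 2 lay below tumor replicate 1, and the adjusted p was 0.0990. Cited2, a cofactor of WT1 at the Nr5a1 promoter, stood at 561, 229.5 and 526 CPM in control ovaries and 116, 182 and 227 CPM in tumor ovaries (edgeR adjusted p 0.0935); control replicate 2 was again nearest to the tumor libraries. Both were picked after their values were seen.

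Among the adrenal cortex markers, which share NR5A1 and NR0B1 with the ovary, Cyp11b1 and Akr1b7 were at 58.6 and 78.4 CPM in control replicate 1 and at 64.4 and 108.2 CPM in control replicate 3. They were at most 2.19 and 6.82 CPM in the other 4 libraries. Mc2r, of the same list, went the other way, at 0.540, 0.802 and 0.700 CPM in control and 8.73, 0.959 and 2.83 CPM in tumor replicates 1, 2 and 3. The summed adipocyte markers lay in the same order in tumor, at 7750, 699 and 3198 CPM. Their part in the level of Mc2r was not tested. Star, which the ovary also expresses, was at 893, 503 and 771 CPM in control and 53.8, 277 and 483 CPM in tumor. Cyp11b2 was at most 0.108 CPM and Cyp21a1 at most 0.640 CPM in any library. These genes were picked after their values were seen.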
